A study of Mus musculus with 6 samples.

Results

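A set of 10 integrin subunit genes that encode receptors for the extracellular matrix was examined in mouse mammary cells: Itga1, Itga2, Itga3, Itga5, Itga6, Itga9, Itgav, Itgb1, Itgb4 and Itgb6. They were found by name, through the transcript that each non-control probe of the array was designed for, and make up 10 of 20660 genes that had a matched probe. The genes had 14 probes, of which 13 passed the filter on low signal and were tested, and all 14 are shown because probes of 1 gene can differ. RNA came from 3 samples of E18.5 fetal cells and 3 of adult basal cells, labelled as biological replicates and taken from C57Bl6J females, the adults at 8 to 12 weeks of age, and each was hybridized to 1 one-color Agilent array. The fetal cells had been sorted as CD31-CD45-Ter119-EpCAM++CD49f+ and the adult cells, in which BP-1 also served to remove stroma, by the profile CD31-CD45-Ter119-BP-1-EpCAM+CD49f+, after a digestion that was shorter for the fetal glands. Age, sort gate and digestion therefore cannot be told apart here. All differences below are fetal minus adult basal on a log2 scale, so a negative value means a higher signal in adult basal cells.

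An integrin is a pair of 1 α and 1 β subunit in the cell membrane that binds matrix proteins outside the cell and, through adaptor proteins such as talin and kindlin, actin filaments inside it. Integrin α6β4 is the exception, since it is joined through plectin and BPAG1 to keratin filaments in hemidesmosomes, the rivets that hold basal epithelial cells to the basement membrane. In the mammary gland the basal layer rests on a basement membrane of laminins, collagen IV and nidogen, and α6 integrin, known to flow cytometrists as CD49f, is widely used to sort basal cells. Because both populations were sorted on CD49f, the level of Itga6 is part of how the cells were chosen and not a result.

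The promoter sequences of 4 members are printed as a description. These members were picked for a contrast in array signal, which the sequences themselves do not show. Itga1, Itga5 and Itgav had a higher signal in adult basal cells. Itga2, which lies next to Itga1 on chromosome 13 with no protein-coding gene between them, had overlapping values in the 2 populations. Each run is the 250 bases before the annotated start in RefSeq on GRCm38.p6, 5′ to 3′ on the strand of the gene, with matches to GGGCGG (the GC box), CANNTG (the E-box), TGANTCA (the AP-1 element) or TATAAA (the TATA box) on either strand in capitals.
Itga1, chr13:115101965-115102214, minus strand: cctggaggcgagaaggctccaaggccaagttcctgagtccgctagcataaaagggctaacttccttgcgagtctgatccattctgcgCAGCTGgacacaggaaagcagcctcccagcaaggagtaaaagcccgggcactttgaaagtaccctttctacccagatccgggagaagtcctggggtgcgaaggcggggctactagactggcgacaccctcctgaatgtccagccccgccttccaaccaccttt
Itga2, chr13:114932101-114932350, minus strand: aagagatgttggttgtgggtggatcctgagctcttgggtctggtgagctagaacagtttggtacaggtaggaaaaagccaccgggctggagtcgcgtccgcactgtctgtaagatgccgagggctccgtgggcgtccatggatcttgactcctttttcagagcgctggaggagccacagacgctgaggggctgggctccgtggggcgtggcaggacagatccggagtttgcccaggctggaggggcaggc
Itga5, chr15:103366792-103367041, minus strand: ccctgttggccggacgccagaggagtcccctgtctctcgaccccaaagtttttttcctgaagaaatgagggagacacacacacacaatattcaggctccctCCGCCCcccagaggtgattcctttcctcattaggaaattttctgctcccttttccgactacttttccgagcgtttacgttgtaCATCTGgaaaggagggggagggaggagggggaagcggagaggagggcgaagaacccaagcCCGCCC
Itgav, chr2:83724147-83724396, plus strand: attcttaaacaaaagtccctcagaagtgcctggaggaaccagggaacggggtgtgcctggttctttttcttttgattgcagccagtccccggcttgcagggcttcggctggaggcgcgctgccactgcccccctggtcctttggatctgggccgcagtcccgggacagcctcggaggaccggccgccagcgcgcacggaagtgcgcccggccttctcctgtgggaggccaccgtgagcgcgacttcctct

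The Itga1 window held 1 E-box, the Itga5 window 2 GC boxes and 1 E-box, and the windows of Itga2 and Itgav held none of the 4 motifs. No matches overlapped. Among 32851 windows of the same length, 32.7% held a GC box, 66.2% an E-box, 6.75% an AP-1 element and 12.4% a TATA box. The letters are given as a description of the sequence, and nothing follows from their absence about any factor. RefSeq windows were matched for 8 of the 10 members.

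All called probes of the members were higher in adult basal cells. Of the 13 tested probes, 4, of Itga1, Itga5 and Itgav, had at least a 2-fold higher signal in adult basal cells with a p of 0.05 or less after Holm adjustment in limma's moderated test, which is what is meant by called below, and 0 were called higher in fetal cells. Of all 20448 tested probes 11.1% were called by that rule, 5.18% higher in adult basal and 5.92% higher in fetal cells. With Benjamini-Hochberg adjustment at the same fold, 7 of 13 probes were called, those of Itga3 and Itgb4 and the remaining Itga1 probe in addition, all higher in adult basal cells, against 30.0% of all tested probes, 14.0% in that direction. The values of the 3 fetal and the 3 adult arrays did not overlap for 10 of 14 member probes, as for 69.1% of all tested probes measured on all arrays. The median difference was -1.28 over the 13 probes and -0.03 over all tested probes. With 1 probe a gene, the brightest, as for the other gene lists below, 2 of the 10 members were called, Itga5 and Itgav, beside 11.2% of all genes. With Benjamini-Hochberg adjustment 5 of 10 were called, beside 29.7%, and the median over the 10 genes was -1.12. The count of 4 member probes became 2 when fetal replicate 1 or 3 or adult basal replicate 1 or 3 was left out, 1 without fetal replicate 2 and 4 without adult basal replicate 2. In sorted populations, fewer cells that express a gene and less of its RNA per cell cannot be told apart.

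**Figure D1:**
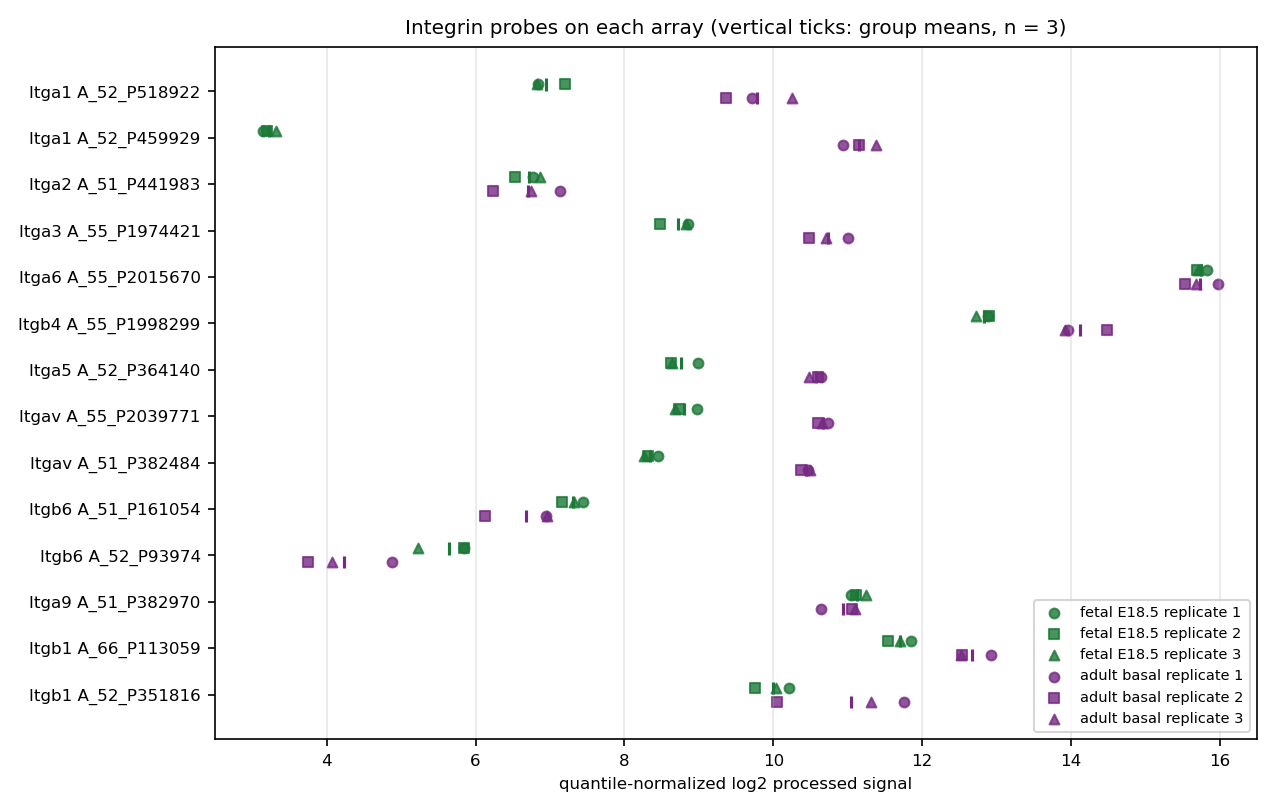
Quantile-normalized log2 processed signal (horizontal axis) of the 14 integrin probes (rows, ordered by ligand) on each array, with fetal replicates in green, adult basal replicates in purple and a vertical tick at each group mean (n = 3). The groups lie apart for the Itga1, Itga3, Itga5, Itgav and Itgb4 probes and overlap for Itga2, Itga6, Itga9 and the Itgb1 probe A_52_P351816. Positions of different probes on the axis are not comparable levels.

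The collagen receptors α1β1 and α2β1 share the β1 chain and differ in the α chain. Itga1, whose product prefers collagen IV, was read by 2 probes. Probe A_52_P518922 gave 6.84, 7.20 and 6.82 in fetal replicates 1 to 3 and 9.71, 9.37 and 10.25 in adult basal replicates 1 to 3. Every adult value was above every fetal value, with a difference of -2.82 (standard error 0.23, 95% interval -3.37 to -2.28). In limma the Benjamini-Hochberg-adjusted p was 3.56e-05 and the Holm-adjusted p 0.0798, just outside the call. The call was met in 5 of 16 other settings, such as without adult basal replicate 2 (Holm-adjusted p 0.0342, limma) and with 75th percentile scaling (0.0478). It was not met with any other array left out, for example without fetal replicate 3 (0.783) or adult basal replicate 1 (0.740). Probe A_52_P459929 gave 3.14, 3.20 and 3.32 in fetal cells, where it was well above background on 0 of 3 arrays, and 10.93, 11.15 and 11.38 in adult basal cells. The fetal signal is only a bound there. That bound, the mean over the 3 fetal arrays of each array's lowest log2 signal well above background, lay 165-fold below the adult mean. The fitted difference was -7.94 (Holm-adjusted p 1.51e-06, limma). The 165-fold is not a strict minimum, because a probe can read above that lowest signal without being well above background. The size depends on the processing. The fitted difference was -4.96 with a normexp correction and an offset of 50, and -6.50 with 16 added before log2. Both are smaller than this bound, and which step moved the size was not tested. The 2 probes therefore gave the same direction and different sizes, -2.82 for the first and a bound of 7.37 log2 units for the second. Because the second size is a bound, no test of the difference between the probes is given. The fetal arrays had a signal well above background on the first probe and not on the second.

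Itga2, whose product prefers fibrillar collagen, read 6.77, 6.53 and 6.86 in fetal and 7.13, 6.23 and 6.75 in adult basal cells. The groups overlapped, with adult basal replicates at both ends, and the difference was 0.02 with a 95% interval of -0.51 to 0.55. Within slides the sign of its difference was not the same, at -0.17 on slide 1 and 0.46 on slide 2.

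The laminin receptor chains Itga3 and Itgb4 had a higher signal in adult basal cells and were called with Benjamini-Hochberg but not with Holm adjustment. Itga3, the α chain of α3β1, read 8.85, 8.48 and 8.82 in fetal and 10.998, 10.48 and 10.71 in adult basal cells. The groups lay apart, with a difference of -2.01 (standard error 0.17, 95% interval -2.41 to -1.61), with a Benjamini-Hochberg-adjusted p of 4.11e-05 and a Holm-adjusted p of 0.0974 (limma). It was called with Holm adjustment in 3 of 16 other settings. Itgb4, the β chain that α6 pairs with in hemidesmosomes, read 12.88, 12.90 and 12.72 in fetal and 13.96, 14.49 and 13.92 in adult basal cells. All 3 adult values were higher, adult basal replicate 2 the highest, and the difference of -1.28 (standard error 0.17, 95% interval -1.68 to -0.89) had a Benjamini-Hochberg-adjusted p of 4.11e-04 and a Holm-adjusted p of 1 (limma).

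Itga6, the sorted antigen, read 15.82, 15.69 and 15.71 in fetal and 15.97, 15.53 and 15.68 in adult basal cells. The groups overlapped and the difference was 0.01 (95% interval -0.30 to 0.33), given as a description of the gate. The other antigen of the gate, EpCAM, was set at a higher level in the fetal sort, and Epcam read 12.95, 13.08 and 12.88 in fetal against 11.31, 11.03 and 10.94 in adult basal cells, a difference of 1.88 that is given as a description, since the sort used this antigen.

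Among the receptors that recognise the RGD sequence of fibronectin and vitronectin or of latent TGFβ, the α chains Itga5 and Itgav were called higher in adult basal cells and the β chain Itgb6 was not called. Itga5, the α chain of the classical fibronectin receptor, read 8.99, 8.63 and 8.64 in fetal and 10.65, 10.61 and 10.48 in adult basal cells. The adult values were all higher and the difference of -1.82 (standard error 0.13, 95% interval -2.13 to -1.51) was called (Holm-adjusted p 0.0352, limma). That call was lost when any 1 of the 6 arrays was left out, with Holm-adjusted p between 0.0693 and 0.420, while the difference stayed between -1.94 and -1.76 and the Benjamini-Hochberg-adjusted p at or below 2.19e-04.

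Itgav, the α chain that pairs with β1, β3, β5, β6 and β8, had 2 probes. Probe A_51_P382484 read 8.45, 8.32 and 8.27 in fetal and 10.47, 10.37 and 10.50 in adult basal cells, and probe A_55_P2039771 read 8.98, 8.73 and 8.68 against 10.74, 10.60 and 10.65. On both probes the groups lay far apart compared with their spread. The differences were -2.10 (standard error 0.10, Holm-adjusted p 0.00227) and -1.87 (standard error 0.12, Holm-adjusted p 0.0132) in limma, a 4.28-fold and a 3.65-fold higher signal in adult basal cells, and differed from each other by -0.23 (95% interval -0.45 to -0.01, Benjamini-Hochberg-adjusted p 0.103), which was not called, while 15.1% of 4714 pairs of probes of a gene differed by at least 2-fold at 0.05. The call of the first probe was lost without fetal replicate 2 (Holm-adjusted p 0.0550) and that of the second without any array other than adult basal replicate 2 (at most 0.221). Its Benjamini-Hochberg-adjusted p stayed at or below 1.38e-04.

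Itgb6, an epithelial β chain that pairs only with αv and activates latent TGFβ, was read by 2 probes, on both of which the fetal values lay above the adult values. Probe A_51_P161054 read 7.44, 7.16 and 7.32 in fetal and 6.95, 6.13 and 6.96 in adult basal cells, with adult basal replicate 2 the lowest. The difference of 0.63 (95% interval 0.08 to 1.17, Benjamini-Hochberg-adjusted p 0.0496, limma) was under 2-fold and not called, and lay between 0.35 and 0.77 with 1 array left out. Probe A_52_P93974 read 5.85, 5.84 and 5.23 in fetal cells, well above background on 3 of 3 arrays, and 4.87, 3.75 and 4.07 in adult basal cells, well above background on 1 of 3. It fell below the low-signal boundary of 5.95 in both populations and was not tested. Its mean difference of 1.41 is a description, since 2 of the 3 adult values are not well above background. With no low-signal filter, or with the filter on probes well above background, it was called higher in fetal cells with Benjamini-Hochberg adjustment (adjusted p 0.0139 and 0.00656, limma) and not with Holm adjustment. It passed the latter filter only through the fetal group, where it was higher. In both settings 2 of the 3 adult values were not well above background, so neither call supports anything about Itgb6.

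Itga9, whose product pairs with β1 and binds tenascin-C, VCAM-1 and osteopontin, read 11.04, 11.11 and 11.24 in fetal and 10.64, 11.06 and 11.10 in adult basal cells. The groups overlapped through adult basal replicates 2 and 3, and the difference was 0.19 (95% interval -0.15 to 0.54). Itgb1, the β chain that pairs with every α chain among these members, read 11.85, 11.54 and 11.71 in fetal and 12.92, 12.54 and 12.53 in adult basal cells on probe A_66_P113059. The groups lay apart by -0.96 (standard error 0.15, 95% interval -1.31 to -0.62, Benjamini-Hochberg-adjusted p 8.88e-04, Holm-adjusted p 1, limma), a 1.95-fold higher adult signal. It passed 2-fold, and so was called with Benjamini-Hochberg but not with Holm adjustment, in the deposited normalized values (-1.01) and without fetal replicate 1 (-1.04), adult basal replicate 2 (-1.03) or adult basal replicate 3 (-1.03).

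The other Itgb1 probe, A_52_P351816, read 10.22, 9.76 and 10.03 in fetal and 11.75, 10.05 and 11.32 in adult basal cells. Adult basal replicate 2 lay among the fetal values and the other 2 adult values above them, so that the groups overlapped. The difference of -1.04 (standard error 0.40, 95% interval -1.99 to -0.08, Benjamini-Hochberg-adjusted p 0.0589, limma) became -1.53 without that array (Benjamini-Hochberg-adjusted p 3.83e-04) and -0.68 without adult basal replicate 1 (0.160). It was also called with Benjamini-Hochberg adjustment with an offset of 16 before log2 (0.0477). On slide 2, which holds adult basal replicate 2, the difference was -0.15, and on slide 1 it was -1.32. The 2 probes of Itgb1 differed from each other by -0.07 (95% interval -0.92 to 0.78).

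**Figure D2:**
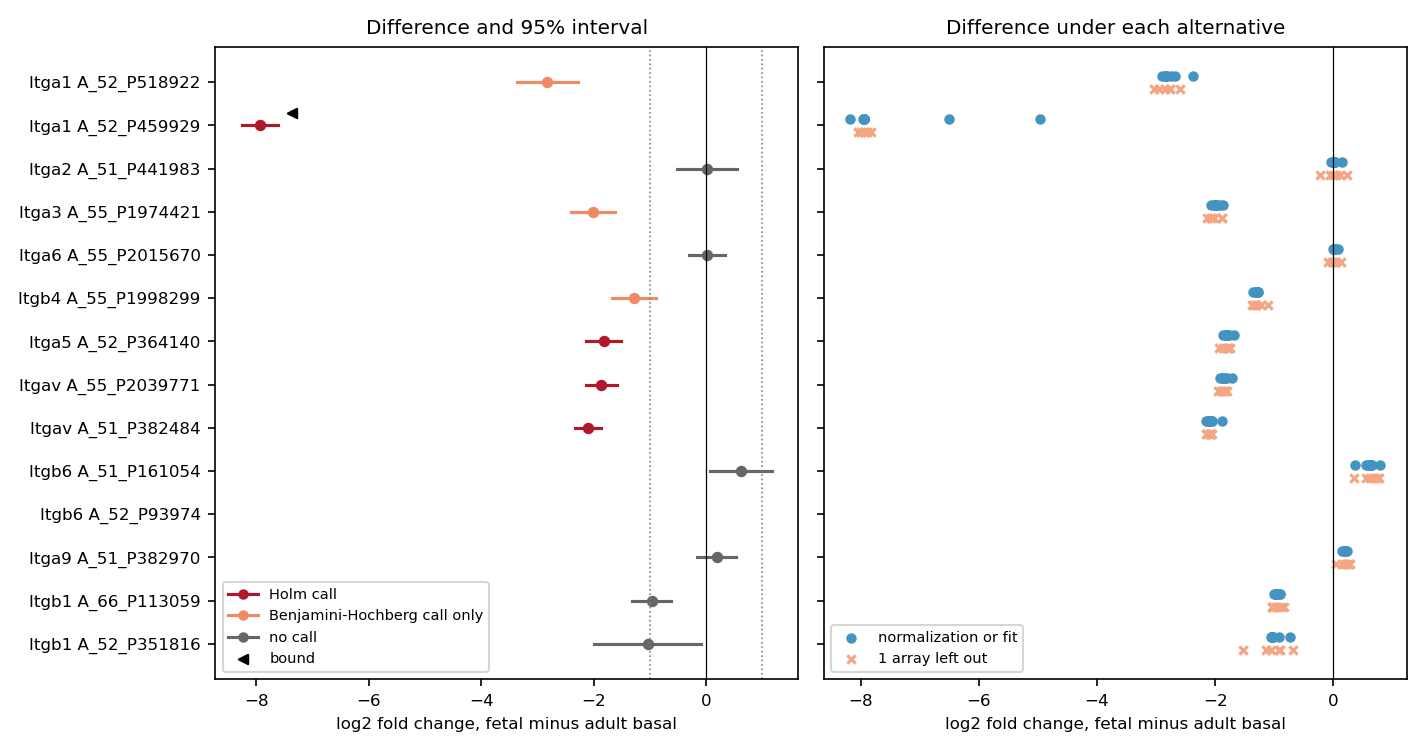
Log2 fold change, fetal minus adult basal (horizontal axes), for the integrin probes (rows). Left, the difference with its 95% interval from limma, coloured by call, with dotted lines at a 2-fold difference and a triangle at the bound of the Itga1 probe whose fetal signal was not well above background. Right, the same difference under other normalizations and fits (blue) and with 1 array left out (orange crosses). Itgb6 A_52_P93974 was not tested and has no point. The Itga1, Itga3, Itga5, Itgav and Itgb4 probes stayed below 0 throughout, and Itga2 and Itga6 crossed it.

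The arrays lay on 2 slides, each with both populations. Fetal replicate 1 and adult basal replicates 1 and 3 were on slide 1 and the other 3 arrays on slide 2. Within slides, 12 of the 14 member probes kept their direction, Itga2 and Itga6 being the exceptions. On slides 1 and 2 the called differences were -1.57 and -1.97 for Itga5, whose call was lost with slide as a block (Holm-adjusted p 0.145, limma), -2.03 and -2.08 for Itgav probe A_51_P382484, and -1.71 and -1.89 for its other probe. Itga1 probe A_52_P459929 has only a bound for its fetal signal.

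Among integrin subunits outside this group, 1 gene was called in each direction. Of 16 listed genes, 14 had a probe and 11 were tested, 1 gene a probe, with 1 called higher in fetal and 1 in adult basal cells, beside 11.2% of all genes tested with 1 probe each. Itga7, a laminin-binding α chain best known from muscle, read 7.17, 7.28 and 6.92 in fetal and 10.63, 9.99 and 10.50 in adult basal cells, a difference of -3.25 (Holm-adjusted p 0.00768, limma). Itga11, a collagen-binding α chain best known from fibroblasts, went the other way, with 10.57, 10.68 and 10.38 in fetal and 8.38, 8.71 and 8.41 in adult basal cells, a difference of 2.04 (Holm-adjusted p 0.0193). Neither was called when any of the 3 fetal arrays or adult basal replicate 1 or 3 was left out, and 3 of the 11 genes were called without adult basal replicate 2. The largest differences that were not called were those of Itgb3, the β3 chain (CD61) that pairs with αv, at -1.56 (Holm-adjusted p 0.0620), and Itgb8, another partner of αv, at 1.01 (Holm-adjusted p 1). With Benjamini-Hochberg adjustment both were called, so 4 of 11 genes were, beside 29.7% of all genes. Itgb5, also a partner of αv, differed by -0.34 (95% interval -0.63 to -0.05). Beside the higher adult basal signal of Itgav, its β partners thus went both ways, with Itgb3 higher in adult basal cells and Itgb8 in fetal cells. The other Itgb3 probe gave -0.91, under 2-fold and not called with either adjustment. The median difference over the 11 genes was -0.55. Itgad and Itgax were among the genes not tested.

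Among cytoplasmic proteins that bind integrin tails, regulate them or signal from them, 20 of the 25 tested genes had a negative difference, 5 of them called. Some of the 20 were well under 2-fold, and the share of negative differences over all genes was not counted. Of 28 listed genes, 27 had a probe and 25 were tested, with 5 called higher in adult basal cells and 0 in fetal cells, and 13 and 1 with Benjamini-Hochberg adjustment, beside 11.2% and 29.7% of all genes by the respective rules. The median difference was -1.03, beside -0.03 over all tested probes. Lims2 (PINCH-2, a partner of integrin-linked kinase) read 7.63, 7.70 and 7.84 in fetal and 13.31, 13.61 and 13.69 in adult basal cells, a difference of -5.81 (Holm-adjusted p 1.06e-05, limma). The tensins Tns4, Tns3 and Tns1, which bind β tails, differed by -2.95, -2.57 (-1.24 on the other Tns3 probe, not called) and -1.40, and Tln1, which encodes talin-1, by -1.61 (Holm-adjusted p 0.0454). Dab2 and Tns2 had the largest differences that were not called, at -2.04 and -1.70. Tln2, the paralogue of Tln1, read higher in fetal cells by 1.42 and was called with Benjamini-Hochberg adjustment (Holm-adjusted p 0.0526), while its other probe gave -0.12 with overlapping groups. Parva, which encodes α-parvin, was not called on its brightest probe (-0.55), while its other probes gave -1.83, called, and -1.69, called with Benjamini-Hochberg adjustment. A further probe of Tns1 gave -5.63, different from the brighter one by -4.23. The number of called genes fell from 5 to 1 without fetal replicate 1, 2 without fetal replicate 2, and 3 without fetal replicate 3 or adult basal replicate 1 or 3.

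Partners of α6β4 and the tetraspanins that associate with laminin-binding integrins were called in 4 of 10 genes, all higher in adult basal cells, and 6 of 10 with Benjamini-Hochberg adjustment, beside 11.2% and 29.7% of all genes. Dst, a gene with several isoforms of which the epithelial one, BPAG1, lies in hemidesmosomes, read 8.86, 8.53 and 8.37 in fetal and 12.19, 12.37 and 12.53 in adult basal cells, a difference of -3.78 (Holm-adjusted p 8.06e-04, limma) on a probe whose isoform was not determined. Col17a1, the transmembrane collagen of hemidesmosomes, differed by -2.51, Slc3a2, which encodes the integrin-associated CD98 heavy chain, by -3.24, and the tetraspanin Cd63 by -1.50. Bsg (basigin) at -1.62 and the tetraspanin Cd151, a direct partner of α3β1 and α6β4, at -1.36 were the largest differences not called. The median over the 10 genes was -1.43, and Itgb4 itself differed by -1.28. With 1 array left out, 3 or 4 genes were called.

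Among the matrix ligands, the laminin chains Lamb3 and Lama3 were called higher in adult basal cells. Of 25 listed genes, 24 were tested, with 5 called higher in adult basal and 1 in fetal cells, and 9 and 3 with Benjamini-Hochberg adjustment, where 11.2% and 29.7% of all genes were called. Lamb3 read 9.86, 10.01 and 9.66 in fetal and 15.09, 15.44 and 15.54 in adult basal cells, a difference of -5.51, and Lama3 differed by -3.85 on its brighter probe and by -2.52 on the other, both called. Both belong to a laminin bound by α3β1 and α6β4. The other laminin chains went both ways. Lamb1 was higher in fetal cells by 1.24 and called with Benjamini-Hochberg but not Holm adjustment (Holm-adjusted p 0.0739, limma). Lama1 (-1.04) and Lamb2 (-1.07) were called higher in adult basal cells with Benjamini-Hochberg adjustment only, and Lama5 (0.28) and Lamc1 (-0.24) with neither. Vcam1 and Tnc, both ligands of α9β1, differed by -3.61 and -2.76, the latter on 1 of its 2 probes, since the other gave -0.16. Col4a2, a basement membrane collagen chain and ligand of α1β1, differed by -2.13. Npnt, which encodes nephronectin, a ligand of α8β1, was called higher in fetal cells by 1.75 (Holm-adjusted p 0.0410). Ltbp1, which tethers latent TGFβ for activation by αv integrins, at 2.85 and Col4a1 at -1.44 were the largest differences not called. The median over the 24 genes was -0.83. The number of called genes fell from 6 to 3 when any of the fetal arrays or adult basal replicate 3 was left out.

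**Figure D3:**
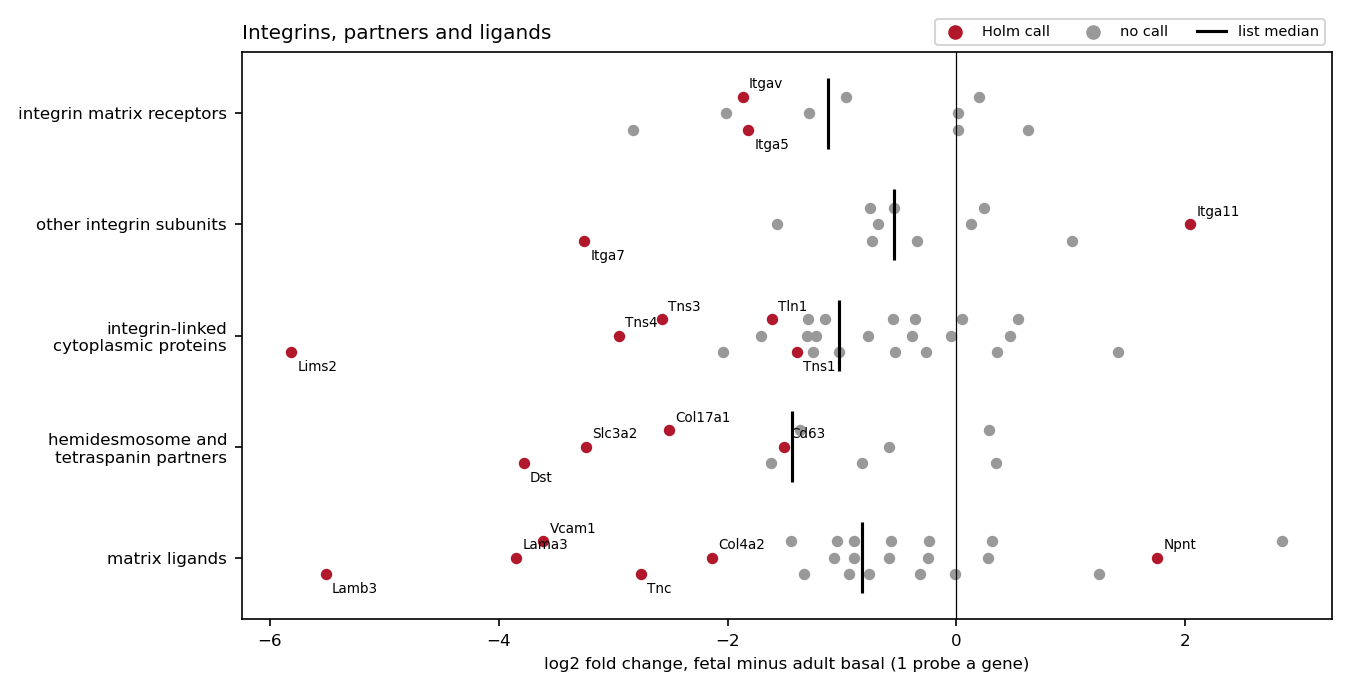
Log2 fold change, fetal minus adult basal (horizontal axis), of each tested gene (1 probe a gene, the brightest) in 5 groups (rows), with called genes in red and named, the others in grey, and the group median as a black line. Values below 0 are higher in adult basal cells. Called genes lay below 0 except Itga11 and Npnt, and Itga1 is drawn by its brighter probe, which was not called.

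The labels of the samples were set against marker genes. All 7 basal markers were well above background in both populations, but 5 of the 7 were called higher in adult basal cells, the exceptions being Krt14 and Trp63. Their summed linear signal was 65385, 57723 and 52042 in fetal and 818586, 756887 and 747239 in adult basal replicates 1 to 3, with Acta2, smooth muscle actin, the brightest. The luminal list summed to 174951, 176717 and 137888 in fetal and 117031, 108623 and 109811 in adult basal cells, with Krt18 the brightest, and 3 of 7 genes, Elf5, Kit and Csn3, were called higher in fetal cells. Krt19 of the luminal list went the other way, at -1.22, and was called higher in adult basal cells with Benjamini-Hochberg adjustment, and Prlr was at -0.35. The summed basal signal thus moved in the direction of the called integrins and the summed luminal signal in the other, and their part in the integrin differences was not tested.

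Markers of cells that the gates were meant to remove were also summed. The fibroblast list read 5465, 5748 and 7069 in fetal and 16083, 18579 and 26686 in adult basal cells, with Dcn the brightest and 2 of 7 tested genes, Dcn and Pdgfrb, called higher in adult basal cells. Lum, at -1.05, was called too with Benjamini-Hochberg adjustment, while Col1a1 differed by -0.01 with overlapping groups. On the fetal arrays Dpt did not stand well above background. The pericyte list read 384, 363 and 377 in fetal and 519, 575 and 524 in adult basal cells, with Cspg4 the brightest, 0 of 3 tested genes called, and Kcnj8 not well above background on any array. Rgs5 was at -2.22 and called higher in adult basal cells with Benjamini-Hochberg adjustment, and Des stood well above background on 3 adult and 0 fetal arrays. Fibroblasts and pericytes are known to carry α1, α5 and αv integrins, and the part of these cells in the differences was not tested.

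The endothelial list, with Kdr the brightest, read 12338, 10830 and 12642 in fetal and 12934, 13953 and 11473 in adult basal cells, and the leukocyte list, with Csf1r the brightest, 15861, 12090 and 13941 against 13473, 15058 and 15343. The groups overlapped for both sums and 0 of 5 tested genes were called in either list, although Cdh5, Emcn and Vwf of the endothelial list and Lyz2 of the leukocyte list were called higher in adult basal cells with Benjamini-Hochberg adjustment. The epidermis list read 2323, 1891 and 1879 in fetal and 729, 784 and 741 in adult basal cells, with Krt10 the brightest and called. Of the other antigens used to remove cells, Pecam1 (CD31) differed by -0.14 (95% interval -0.42 to 0.13) and Ptprc (CD45) by -0.31 (-0.89 to 0.26), neither called. Enpep, which encodes the BP-1 antigen used to gate the adult cells, was below the low-signal boundary in both populations.

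**Figure D4:**
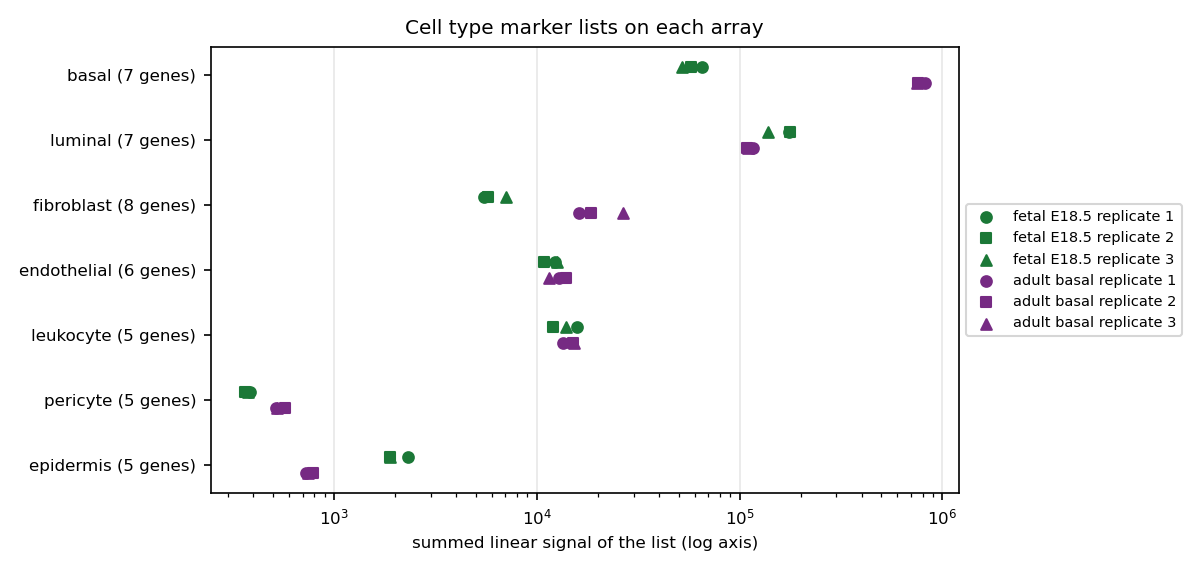
Summed linear signal (log axis) of 7 lists of cell type markers (rows) on each array, fetal in green and adult basal in purple, with the marker shape giving the replicate. The basal, fibroblast and pericyte sums were higher in all 3 adult basal arrays, the luminal and epidermis sums in all 3 fetal arrays, and the endothelial and leukocyte sums overlapped.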

How the data were processed

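The authors extracted the spots with Agilent's Feature Extraction software (version 11.0.1.1, named in the submitters' processing notes) and deposited, for each array, the processed signal, a linear intensity with background and spatial trend subtracted and no normalization between arrays, and a table of log2 values that they quantile normalized in GeneSpring. The labels name the Low Input Quick Amp kit and the methods a whole-transcript version of it. The array design names the mm9 build, so no coordinates were taken for probes.

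Outlier spots (104 to 326 an array) were left out, log2 intensities averaged by probe and quantile normalized over 55681 probes. Of these, 27235 (48.9%) matched 20660 genes through RefSeq (GRCm38.p6). Probes under the boundary between the lowest 2 of 3 k-means clusters (5.95) in both groups were removed. The remaining 20448 were fitted with limma 3.58.1 in R 4.3.3 and called where p after Holm adjustment was 0.05 or less and the difference 2-fold or more, with Benjamini-Hochberg adjustment as the alternative. On simulated data for this comparison, 200 of 20448 probes were changed by 2 or 3 log2 units in either direction. Of these, 70.5% were recovered with Holm and 92.5% with Benjamini-Hochberg adjustment. The recovery of smaller differences, down to the 2-fold threshold, was not measured. The p-values measure the spread between 3 arrays a group, and an exact permutation test of 3 against 3 cannot go below 0.1. No spot of a member was saturated or an outlier, and on all 6 arrays 12 of 14 member probes stood well above background (76.4 to 83.3% of all probes an array).

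The members, gene lists and tests were chosen with earlier results of these data known, and 1 gene of the ligand list is not reported here and was left out of its counts. The text names every member probe, the called genes of each list up to the 6 largest differences a direction, the 2 largest differences not called, the sort antigens and the brightest marker of each summed list. Genes and probes named beside these (Tln2, Itgb5, Parva, Lama1, Lama5, Lamb1, Lamb2, Lamc1, further probes of Itgb3, Tns1, Tns3, Tln2, Lama3 and Tnc, and markers) were chosen after their values were seen. Alternatives changed the scaling (75th percentile, or the deposited log2 values), the background (normexp on the median spot intensity with an offset of 50, or 16 added before log2), the probes (no low-signal filter, those well above background in 1 group, those without a gene match too, or a gene's probes averaged), the fit (eBayes with trend and robust, replicate or slide as a block) and the arrays (1 left out at a time). Promoters were searched in Python 3.11.15.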

Additional observations from a re-analysis of the deposited data

How the results depend on the processing

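Over 16 settings other than the adjustment, the Holm call of Itga1 probe A_52_P459929 was kept in 16, that of Itgav in 14 (A_51_P382484) and 9 (A_55_P2039771), and that of Itga5 in 5, while the 7 probes called with Benjamini-Hochberg adjustment stayed called in all 16. No member probe was called higher in fetal cells with Holm adjustment in any of them. With Benjamini-Hochberg adjustment Itgb6 probe A_52_P93974 was, in the 2 settings that tested it (no low-signal filter, and the filter on probes well above background, which it passed only through the fetal group), with an adult signal well above background on 1 of 3 arrays. The number of probes called among all tested, 2270, became 1182 with no low-signal filter (27235 probes tested), 6133 with Benjamini-Hochberg adjustment, and 952 to 2014 with 1 array left out. For the members the 4 calls became 2 with no filter, 7 with Benjamini-Hochberg adjustment and 1 to 4 with 1 array left out. They were 5 with 75th percentile scaling, and 6 with normexp correction, trend and robust estimation or an offset of 16, where Itga1 probe A_52_P518922 and, in the last 3, Itga3 were called too. For the other integrin subunits the 2 calls became 0, 4 and 0 to 3 in that order, for the cytoplasmic proteins the 5 became 3, 14 and 1 to 4, and for the matrix ligands the 6 became 3, 12 and 3 to 5. With all probes the last 2 lists gave 3 and 3, and with trend and robust estimation 10 and 10. With slide as a block the members gave 3, without Itga5, and the other integrins, cytoplasmic proteins and ligands 1, 3 and 3. The cause of these changes was not tested.

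Deviations of same-numbered arrays correlated at -0.03, 0.09 and 0.05. Such correlations cannot show whether same-numbered samples were handled as pairs, and the main fit did not pair them. With replicate number as a block, 1302 of all tested probes, 1 member probe, 0 other integrins and 3 cytoplasmic proteins were called. With Benjamini-Hochberg adjustment the block added Itgb1 probe A_52_P351816 (0.0136).

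Differences near 0 changed sign. Itga2 was -0.034 with 75th percentile scaling and lay between -0.22 and 0.23 with 1 array left out, being negative at -0.01, -0.05 and -0.22 without fetal replicate 1, fetal replicate 3 or adult basal replicate 2. Itga6 was -0.0093 with normexp correction and between -0.084 and 0.13, negative without fetal replicate 1 or adult basal replicate 2 or 3. The difference between the Itgb1 probes was 0.16 with slide as a block, and between -0.51 and 0.16 with 1 array left out, positive without adult basal replicate 1 or 3. The number of arrays, 3 a group, limits precision, and a probe not well above background gives only a bound.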

Other observations

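Adult basal replicate 2, which lay among the fetal values on Itgb1 probe A_52_P351816, also did so for the basal keratin Krt14, which read 15.25, 13.39 and 15.46 in adult basal replicates 1 to 3 and 13.78, 13.37 and 13.36 in fetal replicates 1 to 3. Its values for Itgav (10.60 and 10.37), Itga5 (10.61) and Myh11, smooth muscle myosin (14.34, against 14.07 and 14.64 in the other adult arrays), lay with those of the other adult arrays, and it had the highest Itgb4 value, 14.49. These were chosen after their values were seen.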
